A study of Mus musculus with 30 samples.

Results

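The response to 48 h of brain-derived neurotrophic factor (BDNF) was compared between telencephalon cultures with and without Xbp1. The comparison used 20 of the 30 arrays of the series, 5 in each of 4 groups taken from the sample titles. The groups were Xbp1 +/+ (wild type) without BDNF, wild type with 48 h of BDNF, Xbp1 -/- (knockout) without BDNF, and knockout with 48 h of BDNF. The quantity described for each gene is the knockout change from basal to 48 h minus the wild-type change, on the log2 scale. A value of 0 means equal fold changes, a negative value a smaller rise or larger fall in the knockout, and a positive value the reverse.

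The telencephalon, from which the cortex and the basal ganglia develop, was taken at embryonic day 12.5 from the offspring of heterozygous parents. Tissue of 6 knockout embryos formed 1 pool and tissue of 4 wild-type embryos the other, and each pool was split over 15 dishes at low density in serum-free medium. Dishes of the 48 h groups received BDNF (100 ng/ml) from day 3 in vitro; basal dishes were lysed on day 4 and 48 h dishes on day 5. The series asked whether BDNF raises markers of GABAergic neurons less when Xbp1 is missing. Each array holds 1 dish, so the p-values measure the spread between dishes of 1 pool, and genotype and pool cannot be told apart. BDNF and the extra day in culture cannot be told apart either, in both genotypes. A lower signal in such bulk samples can mean fewer cells of a type or less RNA per cell, which cannot be told apart.

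XBP1 belongs to the unfolded protein response, by which cells adjust their secretory machinery to its load. Stress in the endoplasmic reticulum (ER) activates the sensor IRE1, which splices Xbp1 mRNA, and the spliced form encodes a factor that drives genes for chaperones, protein degradation and the secretory pathway. BDNF binds the receptor TrkB, which signals through the ERK kinases among other routes. In cultured forebrain neurons it is known for raising neuropeptides and other markers of GABAergic cells.

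The 2 promoters shown here belong to the secreted-protein processing enzymes Pcsk5 and Pcsk1, whose responses differed between genotypes in opposite directions. Both windows come from RefSeq on the mouse assembly GRCm38.p6 and run from 250 bases before to 50 bases after the annotated start, read 5′ to 3′ on the gene's strand. Capitals mark the motif TGACGTCA, the cAMP response element that CREB binds. Pcsk1 lies on the plus strand at chr13:75089607-75089906 and Pcsk5 on the minus strand at chr19:17837583-17837882.
Pcsk1: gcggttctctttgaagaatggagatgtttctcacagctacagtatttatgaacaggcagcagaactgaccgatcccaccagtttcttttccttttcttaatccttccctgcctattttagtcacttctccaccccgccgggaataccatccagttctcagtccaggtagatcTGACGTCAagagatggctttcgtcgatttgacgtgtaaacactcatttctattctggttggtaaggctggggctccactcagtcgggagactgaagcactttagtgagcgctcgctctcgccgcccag
Pcsk5: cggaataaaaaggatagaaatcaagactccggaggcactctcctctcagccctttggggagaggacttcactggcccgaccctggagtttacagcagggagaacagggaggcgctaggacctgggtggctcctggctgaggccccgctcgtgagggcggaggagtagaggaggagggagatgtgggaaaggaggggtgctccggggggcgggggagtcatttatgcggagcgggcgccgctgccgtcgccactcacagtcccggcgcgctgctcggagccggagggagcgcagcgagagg

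The Pcsk1 window held TGACGTCA before the start, with its first base at -78 and its last at -71. Both strands of the windows were searched for 4 motifs: TGACGTCA, the UPR element TGACGTGG, the XBP1 core GCCACGT and the ER stress response element, CCAAT and CCACG with 9 bases between them. Of 32851 promoter windows of this length in the table, 1.79% held TGACGTCA, 0.676% TGACGTGG, 2.58% GCCACGT and 0.119% the ER stress response element. Of the 10 genes described next, 9 matched the table with 11 windows, all but Clu; 1 window held TGACGTCA and 0 held any of the other motifs. A match is a run of letters in the reference and not a measured binding site.

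Xbp1 itself was read first as a check of the labels. Its brightest probe set read 4.37, 4.47, 4.44, 4.46 and 4.40 in wild-type basal arrays and 4.53, 4.65, 4.68, 4.70 and 4.70 in knockout basal arrays, in log2 of the signal divided by the array median. After 48 h of BDNF it read 4.43, 4.54, 4.70, 4.70 and 4.82 in wild-type and 4.74, 4.67, 4.76, 4.65 and 4.87 in knockout arrays. The basal difference, knockout minus wild type, was 0.22 for this probe set. For the others it was 1.085, 0.14 and 0.04, at mean log2 signals of 2.30, 3.95 and -0.38, so the probe sets disagreed on its size. The transcript was thus not low in the knockout, and the deleted stretch is not named in the labels, so these probes do not check the genotype. The difference of the Xbp1 responses was -0.12 ± 0.08 (SE; 95% interval -0.30 to 0.05; adjusted p = 0.848), and its 4 probe sets gave -0.11 to -0.23.

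The pools differed in regional and cell type markers before BDNF was considered. Summed over the 9 telencephalon markers on the array, the scaled signal had a median of 26.3 in wild-type basal arrays (23.1 to 28.1) and 14.6 in knockout basal arrays (13.3 to 15.6). At 48 h the medians were 22 and 13.7. Nkx2-1 and Gsx2 averaged below the array median in all 4 groups, and Dlx2 and Dlx5 did so in both knockout groups. The 18 midbrain and floor plate markers summed to a median of 6.81 (6.57 to 7.22) in wild-type and 19 (16.3 to 21.4) in knockout basal arrays, and to 5.93 and 17.9 at 48 h. Of these 18, 16 averaged below the array median in wild-type and 10 in knockout basal arrays; En1, Shh, Lmx1a, Lmx1b, Pitx3, Corin, Pax5, Pax8 and Nkx6-1 did so in all 4 groups. The 11 choroid plexus markers summed to a median of 152 (145 to 161) in wild-type and 16.3 (9.07 to 48.6) in knockout basal arrays, and to 133 and 25.4 at 48 h. Of these 11, 5 averaged below the array median in wild-type basal arrays (Kl, Aqp1, Slc4a5, Lmx1a and Foxj1) and 9 in knockout basal arrays, so few members carried the sums. The 30 vascular and meningeal markers summed to a median of 259 (238 to 271) in wild-type and 452 (407 to 495) in knockout basal arrays, and to 187 and 361 at 48 h. The endothelial markers Pecam1, Cdh5, Kdr, Tek, Tie1, Flt1, Cldn5 and Esam averaged below the array median in all 4 groups. The part of these differences in the results that follow was not tested.

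**Figure D1:**
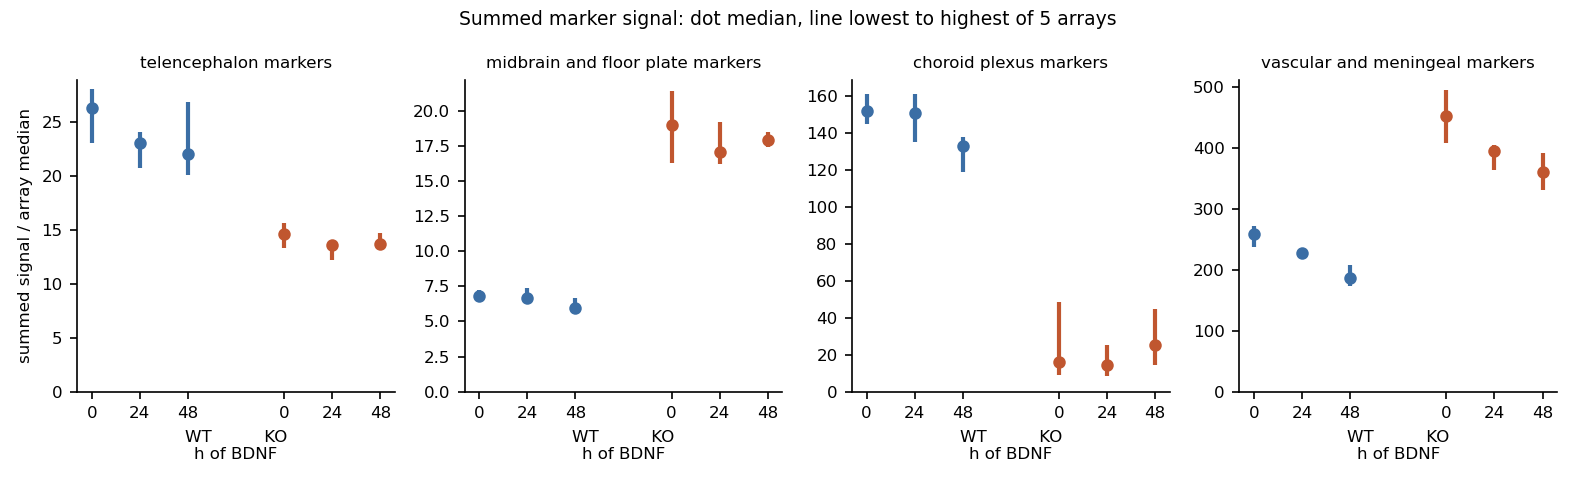
Summed scaled signal (signal divided by the array median, linear scale) of 4 marker lists by genotype (WT, wild type, blue; KO, knockout, red) and hours of BDNF; dots are medians and lines run from the lowest to the highest of 5 arrays. Choroid plexus and telencephalon sums were lower and midbrain and vascular sums higher in the knockout at every time, with basal medians of 152 against 16.3 for choroid plexus.

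Array medians ranged from 81.9 to 138.5 before scaling. The 3′/5′ signal ratio of Gapdh, a measure of RNA quality, ranged from 2.57 to 2.94 in basal arrays and from 2.17 to 2.68 at 48 h. In replicates 3 to 5 of both 48 h groups, 17.3% to 19.1% of probe sets lay at or below the floor of 0.1 of the array median, against 14.9% to 16.7% in the other 14 arrays compared. The fit was therefore also made with 48 h replicates 1 and 2 alone and with replicates 3 to 5 alone.

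Of 7436 tested genes, 10 differed between genotypes in the 48 h response at an adjusted p under 0.05 (limma, Benjamini-Hochberg), or 0.134% of those tested. In 5 genes the knockout response was lower (0.0672%) and in 5 it was higher (0.0672%). The lower ones were the proprotein convertase Pcsk5, the growth factor Igf1, its binding protein Igfbp4, the ERK phosphatase Dusp6 and the guidance ligand Slit2. The higher ones were the prohormone convertase Pcsk1, the secreted chaperone Clu, the binding protein Igfbp7, the transcriptional inhibitor Id3 and Ndrg2. The differences ranged from 0.47 to 0.89 in size on the log2 scale. All 10 calls were lost with the values as deposited, without scaling, and with 48 h replicates 1 and 2 alone; with replicates 3 to 5 alone Pcsk5, Igf1 and Id3 kept theirs. Scaling to the 75th percentile of each array kept 10 calls, of which 7 were shared, but turned the split to 2 higher and 8 lower. The difference of all tested genes had a median of 0.02, with 56.4% above 0, and 515 genes had an unadjusted p under 0.05.

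**Figure D2:**
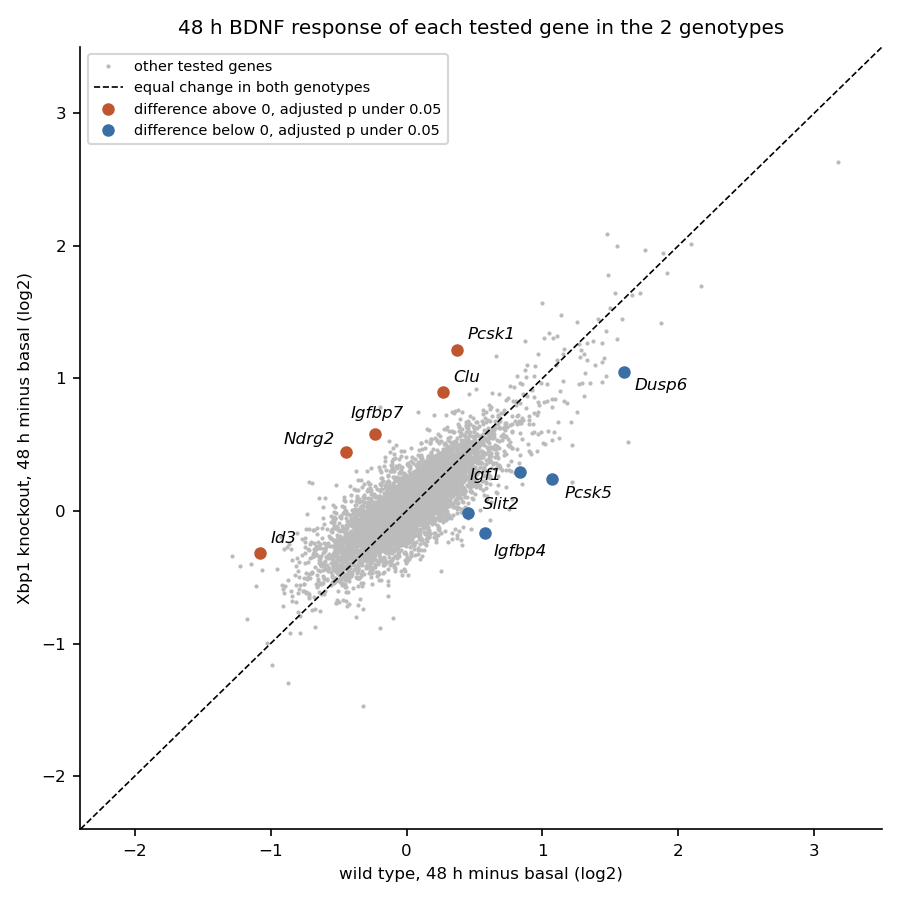
Change from basal to 48 h of BDNF (log2) in wild type (x axis) and in the Xbp1 knockout (y axis); each grey dot is 1 of 7436 tested genes and the dashed line marks equal change. The 5 genes below the line in blue and the 5 above it in red passed an adjusted p of 0.05; the grey dot at the upper right is Npy, at 3.18 and 2.63.

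All 5 genes with a lower knockout response rose in wild type, and 3 of them (Pcsk5, Igf1 and Dusp6) also rose in the knockout. Of the 5 with a higher knockout response, 4 (Pcsk1, Clu, Ndrg2 and Igfbp7) rose in the knockout and 2 of these, Pcsk1 and Clu, in wild type as well. Background shares were 20.5% of tested genes rising in wild type and 19.4% in the knockout. The genes were chosen by the difference of these 2 changes, so the counts of rises describe the genes and support nothing. The basal level differed between genotypes for 8 of the 10 genes, against 27.9% of all tested genes. Basal arrays enter both the response and the basal difference, so this count is a description and supports nothing about the response.

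Pcsk5 encodes a convertase that cleaves precursors of growth factors and other proteins in the secretory pathway. In wild type it read 0.08, 0.36, 0.46, 0.32 and 0.49 without BDNF and 1.23, 1.5, 1.34, 1.41 and 1.57 at 48 h. In the knockout it read 0.85, 0.99, 0.89, 0.76 and 1.16 without BDNF and 1.19, 1.16, 1.19, 1.21 and 1.10 at 48 h. The wild-type groups did not overlap and moved from the lowest to the highest level of the 4, whereas the knockout groups overlapped. The rise was 1.07 ± 0.09 (SE) in wild type (2.10-fold) and 0.24 ± 0.09 in the knockout (1.18-fold; adjusted p = 9.28e-11 and 0.0494). The difference was -0.83 ± 0.13 (95% interval -1.09 to -0.56; adjusted p = 0.00264). It was the smallest p of the comparison, and the call held in all 20 fits that left out 1 array (-0.87 to -0.76). The 3 other Pcsk5 probe sets were dim, with means of -3.01 to -2.23, and gave differences of -0.10, -0.01 and 0.18.

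Pcsk1 encodes the convertase that starts the processing of neuropeptide precursors in dense-core granules. Wild-type arrays read -0.31, -0.66, -0.35, -0.61 and -0.50 without BDNF and -0.45, 0.09, 0.05, -0.12 and -0.13 at 48 h. Knockout arrays read -0.79, -0.82, -0.75, -0.86 and -0.96 without BDNF and 0.49, 0.18, 0.43, 0.40 and 0.40 at 48 h. The wild-type groups overlapped, and the knockout moved from below all wild-type basal arrays to above all wild-type 48 h arrays. Pcsk1 rose by 0.38 ± 0.12 in wild type (1.30-fold) and by 1.22 ± 0.12 in the knockout (2.32-fold; adjusted p = 0.0154 and 2.89e-09). The responses differed by 0.84 ± 0.17 (95% interval 0.49 to 1.19; adjusted p = 0.0356). The call held in 8 of 20 fits that left out 1 array, with an adjusted p of up to 0.0856 (without wild-type basal replicate 1) and differences of 0.76 to 0.89.

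Igf1 encodes insulin-like growth factor 1 (IGF1), a secreted growth factor that supports the survival and growth of neurons. It read 2.64, 2.70, 2.82, 2.49 and 2.69 in wild-type basal arrays and 3.24, 3.55, 3.53, 3.62 and 3.57 at 48 h. Knockout arrays read 3.23, 3.13, 3.21, 3.25 and 3.23 without BDNF and 3.58, 3.43, 3.44, 3.47 and 3.61 at 48 h. Groups with and without BDNF did not overlap in either genotype, the knockout was higher without BDNF, and the 48 h groups of the genotypes overlapped. Igf1 rose by 0.83 ± 0.07 in wild type (1.78-fold) and by 0.29 ± 0.07 in the knockout (1.23-fold; adjusted p = 3.65e-11 and 0.00171). The difference of -0.54 ± 0.10 (95% interval -0.74 to -0.34; adjusted p = 0.0163) kept its call in all 20 fits that left out 1 array, and its other 2 probe sets gave -0.39 and -0.44. With the mean of the probe sets the call was lost.

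Igfbp4 encodes a secreted protein that binds IGFs. Wild-type arrays read 2.14, 2.27, 2.34, 2.97 and 2.56 without BDNF and 3.07, 3.03, 2.94, 3.04 and 3.11 at 48 h. Knockout arrays read 4.45, 4.38, 4.53, 4.60 and 4.60 without BDNF and 4.27, 4.33, 4.18, 4.40 and 4.54 at 48 h. All knockout arrays lay above all wild-type arrays, and within each genotype the basal and 48 h groups overlapped, in wild type through basal replicate 4. Igfbp4 rose by 0.58 ± 0.11 in wild type (1.5-fold; adjusted p = 7.85e-05), and its knockout value was -0.17 ± 0.11 (adjusted p = 0.235). The difference was -0.75 ± 0.15 (95% interval -1.06 to -0.45; adjusted p = 0.0354), against a basal difference of 2.05 ± 0.11. The call held in 8 of 20 fits that left out 1 array, with an adjusted p of up to 0.0856 (without wild-type basal replicate 1) and differences of -0.88 to -0.67; it was also lost with no filter, no intensity trend or the mean of probe sets. Of its 5 other probe sets, 4 gave -0.30 to -1.30, and the remaining one, near the floor, gave 0.38.

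Igfbp7 encodes a secreted protein related to the IGF-binding proteins. It read 1.43, 1.45, 1.55, 1.29 and 1.46 in wild-type basal arrays and 1.37, 1.06, 1.16, 1.30 and 1.15 at 48 h. Knockout arrays of Igfbp7 read 0.92, 1.58, 1.23, 0.80 and 1.26 without BDNF and 1.86, 1.87, 1.59, 1.70 and 1.66 at 48 h. The wild-type groups overlapped, and the knockout 48 h arrays lay above all others. The change was -0.23 ± 0.12 in wild type (adjusted p = 0.148), and Igfbp7 rose by 0.58 ± 0.12 in the knockout (1.49-fold; adjusted p = 0.000679). The difference of 0.81 ± 0.18 (95% interval 0.45 to 1.16; adjusted p = 0.0486) kept its call in 4 of 20 fits that left out 1 array, with an adjusted p of up to 0.126 (without knockout basal replicate 4) and differences of 0.72 to 0.91. It was also lost with quantile or 75th percentile scaling, a pseudocount, no filter, no intensity trend or a replicate block. The other 2 probe sets averaged near the floor and gave 0.08 and 0.06.

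Dusp6 encodes the phosphatase that switches off ERK and is itself induced by ERK signalling. In wild type it read 0.13, 0.14, 0.36, 0.32 and 0.32 without BDNF and 1.87, 1.84, 1.93, 1.85 and 1.78 at 48 h. Knockout arrays of Dusp6 read 0.25, 0.16, 0.53, 0.46 and 0.47 without BDNF and 1.33, 1.45, 1.46, 1.26 and 1.62 at 48 h. The basal groups of the genotypes overlapped, and all knockout 48 h arrays lay below all wild-type 48 h arrays. Dusp6 rose by 1.60 ± 0.08 in wild type (3.03-fold) and by 1.05 ± 0.08 in the knockout (2.07-fold; adjusted p = 1.68e-16 and 7.31e-12). The difference was -0.55 ± 0.11 (95% interval -0.78 to -0.32; adjusted p = 0.0417), and the basal difference of 0.12 ± 0.08 did not pass (adjusted p = 0.273). The call held in 6 of 20 fits that left out 1 array, with an adjusted p of up to 0.108 (without knockout 48 h replicate 4) and differences of -0.60 to -0.51; it was also lost with quantile normalization or the 20 arrays alone.

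Spry2, an inhibitor of receptor tyrosine kinase signalling that is also induced by ERK, had a similar pattern without passing at 48 h. Its wild-type change was 1.26 ± 0.09 and its knockout change 0.75 ± 0.09, both rises past the threshold (adjusted p = 6.62e-13 and 1.16e-07). The difference was -0.51 ± 0.13 (95% interval -0.77 to -0.26; adjusted p = 0.123). Its 48 h arrays read 2.98, 2.65, 2.95, 3.12 and 2.93 in wild-type and 2.14, 2.25, 2.35, 2.21 and 2.34 in knockout dishes, without overlap, while the basal groups overlapped. The other Spry2 probe set, dim at a mean of -1.54, gave a difference of -0.09. Of the 10 tested genes for ERK feedback and targets, Dusp6 was the one called lower and 0 were called higher (limma; 2 had an unadjusted p under 0.05, both below 0). Spry4, Etv4, Etv5 and Fosl1 of this list lay below the signal filter and were not tested. The list median of the difference was -0.13, with 9 of the 10 tested genes below 0, against 0.02 over all tested genes. In each genotype 5 of the 10 rose at 48 h (background 20.5% in wild type and 19.4% in the knockout). Dusp1, the phosphatase of the same family that acts on several MAP kinases, had a value of 0.14 in both genotypes and passed in neither. Spry1 rose by 0.27 in wild type and 0.35 in the knockout.

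Slit2 encodes a secreted ligand of Robo receptors that repels growing axons and is made by the floor plate among other tissues. Wild-type arrays read 3.07, 2.92, 3.13, 3.53 and 3.14 without BDNF and 3.71, 3.58, 3.55, 3.60 and 3.61 at 48 h. Knockout arrays read 3.95, 3.99, 4.13, 4.15 and 3.97 without BDNF and 3.98, 4.00, 4.00, 4.00 and 4.13 at 48 h. All knockout arrays lay above all wild-type arrays, and the groups with and without BDNF were apart in wild type and overlapped in the knockout. Slit2 rose by 0.45 ± 0.07 in wild type (1.37-fold; adjusted p = 1.17e-05), against -0.02 ± 0.07 in the knockout (adjusted p = 0.897). The difference of -0.47 ± 0.10 (95% interval -0.67 to -0.26; adjusted p = 0.0490) was the last inside the threshold. It was called in 1 of 20 fits that left out 1 array, with an adjusted p of up to 0.142 (without knockout basal replicate 3) and differences of -0.56 to -0.41. It was also lost with a pseudocount, no filter, the upper 40% of genes, the mean of probe sets, the 20 arrays alone, no intensity trend or the Gapdh covariate; its other probe set gave -0.09. Midbrain and floor plate markers were also higher in the knockout, with basal medians of 6.81 and 19, and their part in the Slit2 values was not tested.

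Clu encodes clusterin, a secreted chaperone made by astrocytes and other cells. It read 4.42, 4.13, 4.33, 4.22 and 4.35 in wild-type basal arrays and 4.48, 4.50, 4.42, 4.69 and 4.69 at 48 h. In the knockout it read 2.90, 2.48, 2.60, 2.66 and 2.90 without BDNF and 3.65, 3.55, 3.58, 3.59 and 3.64 at 48 h. All knockout arrays lay below all wild-type arrays, and the knockout groups did not overlap. Clu rose by 0.27 ± 0.09 in wild type (1.20-fold) and by 0.90 ± 0.09 in the knockout (1.86-fold; adjusted p = 0.0195 and 2.89e-09). The difference was 0.63 ± 0.13 (95% interval 0.37 to 0.89; adjusted p = 0.0354), and its 4 probe sets gave 0.62 to 0.74. The call held in 9 of 20 fits that left out 1 array, with an adjusted p of up to 0.0856 (without wild-type basal replicate 1) and differences of 0.57 to 0.68; it was also lost with no filter or no intensity trend.

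Clu was the 1 of 10 tested astrocyte markers that was called. Of the 15 astrocyte markers on the array, the summed signal had a median of 93.1 in wild-type and 91 in knockout basal arrays, and of 89.3 and 92.7 at 48 h. Gfap, Aqp4, S100b, Slc1a2 and Ntsr2 averaged below the array median in all 4 groups. The list median of the difference was 0.15, with Aldoc at 0.30 and Apoe at 0.35 (adjusted p = 0.741 and 0.715). The choroid plexus markers Ttr and Folr1, whose basal levels differed by -3.57 and -2.30 (knockout minus wild type), had response differences of 0.98 and 0.40. Otx2, which is on the choroid plexus and the midbrain lists and was higher in the knockout at basal by 0.74, had one of 0.53, and 0 of these 3 tested members were called (limma; Otx2 alone had an unadjusted p under 0.05). The part of these markers in the Clu values was not tested.

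Id3 encodes an inhibitor of basic helix-loop-helix transcription factors that holds back differentiation and is a target of BMP signalling. It read 1.53, 1.22, 1.34, 1.74 and 1.53 in wild-type basal arrays and 0.89, 0.46, 0.15, 0.20 and 0.27 at 48 h. Its knockout arrays read 2.94, 2.62, 2.97, 2.97 and 2.97 without BDNF and 2.41, 2.70, 2.43, 2.72 and 2.62 at 48 h. All knockout arrays lay above all wild-type arrays, and the basal and 48 h groups were apart in wild type and overlapped in the knockout. Id3 fell by 1.08 ± 0.12 in wild type and by 0.32 ± 0.12 in the knockout (adjusted p = 1.04e-08 and 0.0371), to 0.47 and 0.80 of the basal level. The difference of the log2 changes was 0.76 ± 0.16 (95% interval 0.43 to 1.09; adjusted p = 0.0478). On the linear scale the difference was -0.017 array medians, the opposite sign; the basal level was higher in the knockout by 1.42 ± 0.12 on the log2 scale. The call held in 3 of 20 fits that left out 1 array, with an adjusted p of up to 0.124 (without knockout 48 h replicate 2) and differences of 0.69 to 0.88. It was also lost with quantile or 75th percentile scaling, a pseudocount, no filter, the upper 40% of genes, the mean of probe sets, the 20 arrays alone or no intensity trend.

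The other Id genes tested did not pass. Id1, of the same family as Id3, had changes of -0.81 ± 0.12 (wild type) and -0.16 ± 0.12 (knockout), a difference of 0.64 ± 0.17 (95% interval 0.31 to 0.98; adjusted p = 0.169). Id2 had a difference of -0.17 and Id4 one of 0.14 (adjusted p = 0.903 and 0.811). The homeobox gene Msx2, among the next genes by p, stood at -1.28 ± 0.16 and -0.34 ± 0.16, a difference of 0.94 ± 0.23 (95% interval 0.48 to 1.41; adjusted p = 0.123). The wild-type 48 h arrays of Msx2 were dim and widely spread, at -2.68 to -1.23. Their linear mean was 0.30 of the array median, with the floor at 0.1. Id1 and Msx2 were higher in the knockout without BDNF, by 0.54 and 1.06. Vascular and meningeal markers were higher in the knockout as well, with basal medians of 259 and 452, and their part in these values was not tested. Of 21 tested neural progenitor genes, Id3 was the 1 called; 11 fell in wild type (background 15.7%) and 8 in the knockout (background 9.47%), and the list median of the difference was 0.14.

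Ndrg2, a gene of the N-myc downstream regulated family that is expressed in astrocytes, was the 1 of the 10 called genes that moved past the threshold in opposite directions. It read 1.76, 2.05, 1.55, 1.68 and 1.59 in wild-type basal arrays and 1.36, 1.53, 1.42, 1.33 and 0.74 at 48 h. In the knockout it read 0.44, 0.39, 0.41, 0.43 and 0.87 without BDNF and 1.03, 0.86, 0.68, 1.17 and 1.01 at 48 h. The wild-type groups did not overlap, the knockout groups overlapped through basal replicate 5, and the genotypes overlapped at 48 h. Ndrg2 fell by 0.45 ± 0.13 in wild type and rose by 0.44 ± 0.13 in the knockout (adjusted p = 0.00892 and 0.0119). The difference was 0.89 ± 0.19 (95% interval 0.51 to 1.28; adjusted p = 0.0435). The call held in 5 of 20 fits that left out 1 array, with an adjusted p of up to 0.108 (without knockout 48 h replicate 4) and differences of 0.76 to 0.98. It was also lost with 75th percentile scaling, no filter, the mean of probe sets, the 20 arrays alone or no intensity trend.

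**Figure D3:**
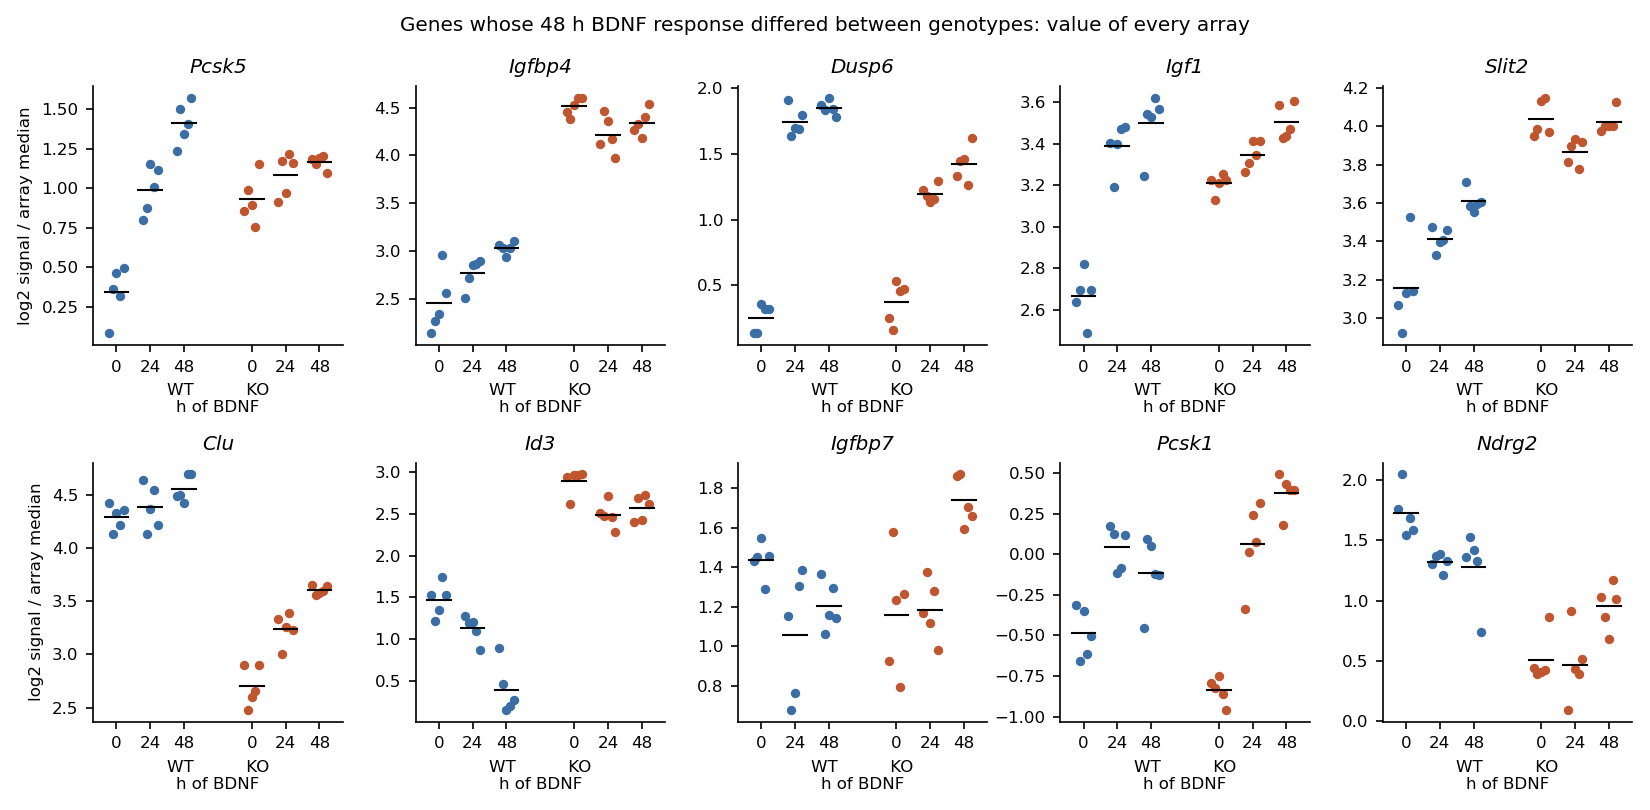
Log2 of the scaled signal of each of the 10 genes in every array, by genotype (WT, wild type, blue; KO, knockout, red) and hours of BDNF; points are arrays and bars are means of 5. Wild-type Pcsk5 climbs from between 0.08 and 0.49 without BDNF to between 1.23 and 1.57 at 48 h. Knockout Pcsk5 lies between 0.76 and 1.16 without BDNF and between 1.10 and 1.21 at 48 h. Knockout Pcsk1 climbs from at most -0.75 without BDNF to at least 0.18 at 48 h.

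At 24 h the same difference was called for 7 of 7436 genes (0.0941%), among them Igf1 (-0.58 ± 0.10; adjusted p = 0.00592) and Dusp6 (-0.67 ± 0.11; adjusted p = 0.00592). Spry2 (-0.64 ± 0.13) and Bdnf (0.93 ± 0.19), which did not pass at 48 h, were also among them (limma, adjusted p = 0.0162 and 0.0367). The 24 h and 48 h differences share the basal arrays, so the values are set side by side and nothing is read from their likeness. Among the genes lower at 48 h, the 24 h difference was -0.49 for Pcsk5, -0.61 for Igfbp4 and -0.42 for Slit2. Among those higher at 48 h it was 0.37 for Pcsk1, 0.44 for Clu, 0.40 for Igfbp7 and 0.36 for Ndrg2. Id3 stood at -0.06 at 24 h and at 0.76 at 48 h. Its wild-type change was -0.34 at 24 h and -1.08 at 48 h, and its knockout change -0.41 and -0.32.

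The other 7 genes of the next 10 by p spanned several roles, and their adjusted p ran from 0.0506 to 0.169 over all 10. Rps9, a protein of the small ribosomal subunit, lay just outside the threshold, with a difference of -0.41 ± 0.09 (adjusted p = 0.0506). It rose by 0.23 ± 0.06 in wild type and fell by 0.18 ± 0.06 in the knockout (limma, adjusted p = 0.00522 and 0.0342). Its other probe sets gave differences of -0.28 and -0.29. The brighter of these had changes of -0.31 in wild type and -0.60 in the knockout. Preb, which loads the coat of vesicles that leave the ER, had changes of -0.52 and -0.06, a difference of 0.47 ± 0.12 (adjusted p = 0.123). The second Preb probe set, with a mean of 2.62 against 3.00, gave changes of 0.06 and 0.25, a difference of 0.19. Rgs10, a regulator of G protein signalling, rose in both genotypes, by 0.66 in wild type and 1.17 in the knockout, a difference of 0.51 ± 0.13 (adjusted p = 0.126). Crabp1, which binds retinoic acid, fell by 1.14 and 0.40 (0.75 ± 0.19; adjusted p = 0.152), and the centromere gene Cenpn had changes of -0.72 and 0.22 (0.94 ± 0.22; adjusted p = 0.112). The second Cenpn probe set, also above the array median, gave changes of -0.47 and -0.29, a difference of 0.18. Tcf19 had a difference of 0.59 ± 0.14 and 6820431F20Rik one of -0.51 ± 0.12 (adjusted p = 0.0961 for both).

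None of the tested GABAergic markers differed in the 48 h response at the threshold. Of 4 tested genes of GABA synthesis, transport and breakdown, 0 were called (limma). Of 7 tested interneuron peptides and calcium-binding proteins, 0 were called too, against 0.134% of all genes. Slc6a13 of the first list and Cort, Vip, Pvalb, Nos1 and Htr3a of the second lay below the signal filter and were not tested. At an unadjusted p under 0.05, 2 of the 4 (Gad1 and Gad2) and 3 of the 7 (Npy, Sst and Reln) would count. This level was met by 515 of all 7436 tested genes. The Reln difference lay above 0 and the others below. All 4 genes of GABA synthesis, transport and breakdown rose in wild type (background 20.5%) and 3 of them in the knockout (background 19.4%). The list median of the difference was -0.18, with all 4 below 0, and ranged from -0.24 to -0.0015 over the alternatives run. Of the interneuron genes, 5 rose in wild type and 6 in the knockout, beside the same background shares. Their median difference was 0.06, with 4 of 7 above 0.

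Gad1 encodes the larger of the enzymes that make GABA. It read 5.11, 5.29, 5.54, 5.41 and 5.37 in wild-type basal arrays and 5.98, 6.08, 6.01, 6.20 and 6.24 at 48 h. Its knockout arrays read 4.98, 5.38, 5.41, 5.33 and 5.22 without BDNF and 5.72, 5.80, 5.86, 5.63 and 5.75 at 48 h. The basal groups overlapped, and at 48 h all knockout arrays lay below all wild-type arrays. Gad1 rose by 0.76 ± 0.07 in wild type and by 0.49 ± 0.07 in the knockout, a difference of -0.27 ± 0.10 (95% interval -0.48 to -0.06; adjusted p = 0.527). The second Gad1 probe set, also above the array median, gave changes of 0.94 and 0.84, a difference of -0.10. The related enzyme Gad2 rose by 1.31 ± 0.15 and 0.87 ± 0.15, a difference of -0.44 ± 0.21 (95% interval -0.88 to -0.01; adjusted p = 0.695). For the vesicular transporter Slc32a1 the difference was -0.07 ± 0.15 (-0.37 to 0.24), and for the GABA-degrading enzyme Abat -0.09 ± 0.17 (-0.43 to 0.25). The Slc32a1 and Abat differences turned positive with the mean of their probe sets, to 0.32 and 0.18.

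Npy, the gene of neuropeptide Y, had the largest mean 48 h response of the tested genes with at least a 2-fold rise. It read 1.11, 0.90, 0.94, 1.04 and 0.91 in wild-type basal arrays and 4.08, 4.25, 3.99, 4.11 and 4.35 at 48 h. In the knockout it read 0.21, 0.42, 0.46, 0.49 and 0.25 without BDNF and 3.09, 3.17, 2.92, 2.74 and 3.07 at 48 h. All knockout arrays lay below the wild-type arrays of the same condition. Npy rose by 3.18 ± 0.10 in wild type (9.06-fold) and by 2.63 ± 0.10 in the knockout (6.19-fold), a difference of -0.55 ± 0.15 (95% interval -0.85 to -0.25; adjusted p = 0.185). The difference passed in 1 alternative, with array weights (adjusted p = 0.0398).

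Somatostatin (Sst) rose by 1.38 ± 0.08 in wild type and by 1.10 ± 0.08 in the knockout, a difference of -0.28 ± 0.11 (95% interval -0.51 to -0.05; adjusted p = 0.547). Its basal level was lower in the knockout by -1.01 ± 0.08. The extracellular matrix protein Reln rose in the knockout by 0.27 ± 0.08, against -0.14 ± 0.08 in wild type, a difference of 0.41 ± 0.11 (95% interval 0.18 to 0.64; adjusted p = 0.194). Like that of Npy, with the opposite sign, it passed in 1 alternative, with array weights (0.39; adjusted p = 0.0493). Calb1, a calcium-binding protein, rose by 1.16 and 1.22, and its difference of 0.06 ± 0.13 had an interval of -0.21 to 0.33. The tachykinin gene Tac1 rose by 1.26 and 1.43 (0.17 ± 0.27; -0.38 to 0.73), and the cholecystokinin gene Cck by 0.41 and 0.47 (0.06 ± 0.15; -0.25 to 0.37). Calb2, another calcium-binding protein, had changes of -0.14 and -0.16 and passed in neither genotype (difference -0.01 ± 0.17; -0.35 to 0.33).

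**Figure D4:**
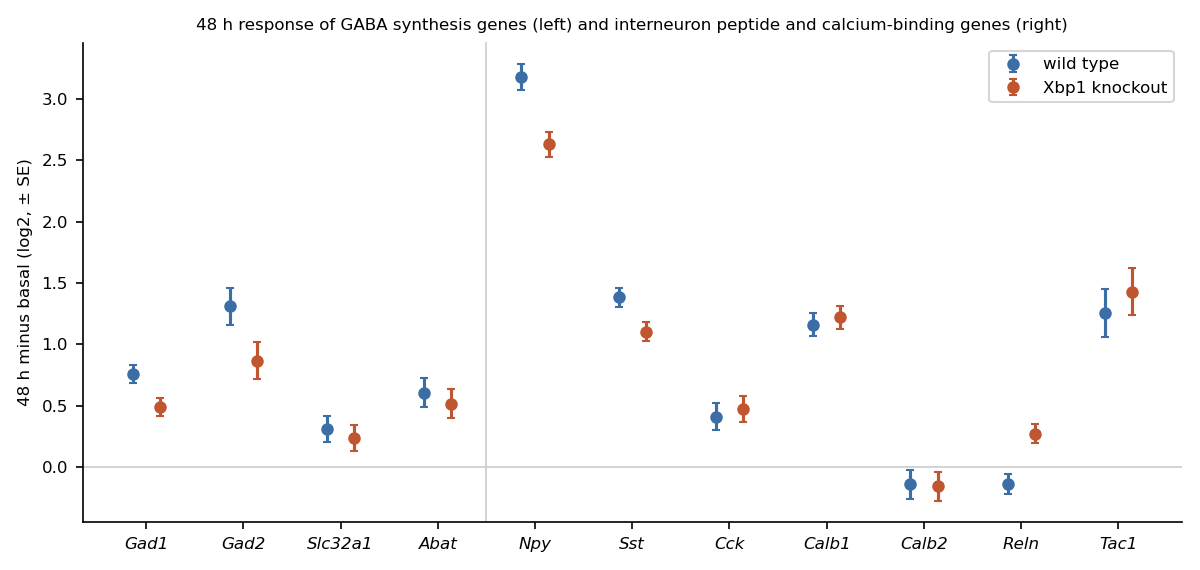
Change from basal to 48 h of BDNF (log2, ± SE of the fit) in wild type (blue) and the Xbp1 knockout (red) for the tested genes of GABA synthesis, transport and breakdown (left of the grey line) and of the interneuron list (right). The knockout lies below wild type for all 4 genes on the left and for Npy, Sst and Calb2 on the right.

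Genes that respond strongly to BDNF were chosen by the mean of both responses, which does not use their difference. An adjusted p under 0.05 and at least a 2-fold mean change at 48 h were met by 58 genes (0.78% of those tested), 55 up (0.74%) and 3 down (0.0403%). Among the 55, wild type had a median change of 1.35 and the knockout one of 1.27. Their difference had a median of -0.08, with 33 of 55 below 0, against a median of 0.02 over all tested genes, and Dusp6 was the 1 called. The 10 largest mean responses belonged to Npy, the guidance gene Sema3e, the peptide genes Pnoc, Cartpt, Nts and Avp, the synaptic pentraxin Nptx1, the granin Scg2, the granule membrane protein Ptprn and Bdnf itself.

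Of these, Pnoc rose by 2.17 ± 0.09 in wild type and 1.70 ± 0.09 in the knockout (difference -0.47 ± 0.13; 95% interval -0.74 to -0.20; adjusted p = 0.218). Bdnf rose by 1.47 ± 0.14 and 2.09 ± 0.14 (0.62 ± 0.19; 0.22 to 1.02; adjusted p = 0.363); its other probe set gave 0.87, 1.07 and a difference of 0.20. For Nts, the neurotensin gene, the rises were 1.55 and 2.00 (0.45 ± 0.16; 0.13 to 0.77; adjusted p = 0.480). These 3 had intervals that left out 0 before adjustment and did not pass after it. Scg2 rose by 1.76 and 1.97, with an interval of -0.02 to 0.45 for the difference. The differences of Sema3e (-0.07 ± 0.23), Cartpt (-0.12 ± 0.17), Nptx1 (0.06 ± 0.16), Avp (-0.08 ± 0.26) and Ptprn (-0.03 ± 0.16) were smaller than their standard errors. Their rises ran from 1.66 to 2.09 in wild type and from 1.63 to 2.02 in the knockout.

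The secretory granule and neuropeptide list is the one through which processed peptides leave the cell. Of its 20 tested members, 18 rose in wild type (background 20.5%) and 17 in the knockout (background 19.4%) at 48 h. Pcsk1 was the 1 whose response was called different. The list median of the difference was 0.02, the same as over all tested genes. The amidating enzyme Pam stood lowest, at -0.68 (adjusted p = 0.715), and the peptide gene Penk at -0.33 (adjusted p = 0.632).

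Of 64 tested XBP1-dependent genes of the ER and secretory pathway, 0 were called (limma) and 9 had an unadjusted p under 0.05; 34 lay below 0 and the median difference was -0.01. In wild type 17 of the 64 rose and 4 fell at 48 h, beside 20.5% and 15.7% of all tested genes. In the knockout 10 rose and 3 fell, beside 19.4% and 9.47%. The ER chaperone Hsp90b1 had the smallest unadjusted p of the list, 0.000888, with 0.29 in wild type, -0.02 in the knockout and a difference of -0.31 (adjusted p = 0.194). The degradation factor Edem1, the disulfide isomerase Pdia3 and the cochaperone Dnajb9, named after their values were seen, had differences of -0.33, -0.33 and -0.33 (adjusted p = 0.608, 0.584 and 0.621). At the other end stood the ER membrane protein Wfs1 at 0.66 and the retrieval receptor Kdelr3 at 0.46 (adjusted p = 0.415 and 0.480). Of 30 tested ATF4 and CHOP targets, genes of another branch of the unfolded protein response, 0 were called, 1 had an unadjusted p under 0.05 and the median was -0.02; 13 of them rose in wild type (background 20.5%) and 10 in the knockout (background 19.4%).

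**Figure D5:**
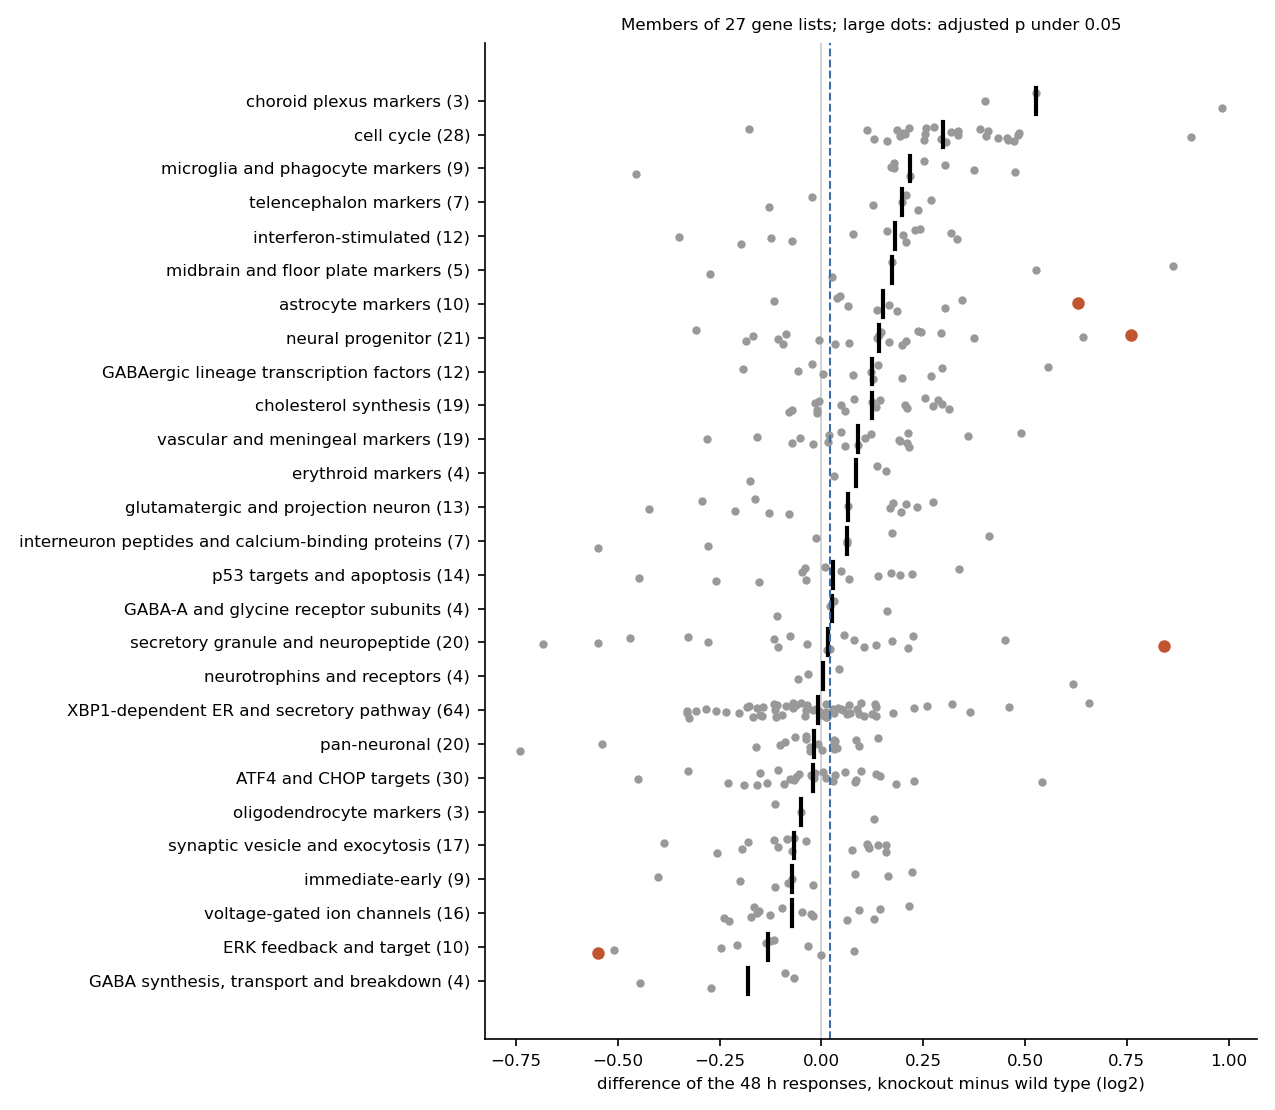
Difference of the 48 h responses, knockout minus wild type (log2), for each tested member of 27 gene lists (number tested in brackets); black bars are list medians, the dashed line is the median of all tested genes at 0.02, and large red dots are members past an adjusted p of 0.05. The 4 large dots are Clu, Id3, Pcsk1 and Dusp6, and the cell cycle list has 27 of 28 members above 0.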

How the data were processed

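The deposited values are array intensity signals on a linear scale, computed by the authors with MAS5 per the submitters' processing notes (version not given); Affymetrix Mouse Genome 430A 2.0 arrays were used, per the labels. The series' design text adds that signals were then divided by the median of each array and filtered on present calls; the deposited array medians differ, so scaling was redone. RNA of 1 dish per array went through 2 rounds of amplification, per the labels' protocols, which favours 3′ ends. Each array's signals were divided by its median, floored at 0.1 and converted to log2. Of 22690 probe sets, 20393 with 1 gene symbol were used (691 had several, 1606 none), the brightest per gene stood for 12394 genes, and the upper 60% by mean signal, 7436, were tested. The limma model (version 3.58.1, R 4.3.3; empirical Bayes, intensity trend) had one mean per group and used all 30 arrays; the 24 h groups add only to the estimate of spread. Tests were two-sided, with Benjamini-Hochberg adjustment over all tested genes. "Rose", "fell" and "called" mean an adjusted p under 0.05. The procedure was tested on simulated data. No 2 arrays were duplicates (pairwise r 0.969 to 0.991 on the log2 scale). The precision is limited by 5 arrays a group.

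The members, the 27 gene lists and the alternatives were chosen with earlier results of these data known. Named genes are Xbp1, all called genes, further genes of smallest p up to 20, called list members, all tested GABA synthesis and interneuron genes, and the 10 largest mean responses; other list members that are named were chosen after their values were seen.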

Additional observations from a re-analysis of the deposited data

Results flagged for a closer look

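The 48 h response differed between genotypes, by a test of the difference itself, for 10 genes. The difference on the log2 scale was -0.83 for Pcsk5, -0.75 for Igfbp4, -0.55 for Dusp6, -0.54 for Igf1 and -0.47 for Slit2. It was 0.89 for Ndrg2, 0.84 for Pcsk1, 0.81 for Igfbp7, 0.76 for Id3 and 0.63 for Clu.

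Single arrays stood apart from the other 4 of their group by Dixon's ratio (critical value 0.71) in 5 of 52 groups checked; chance gives this in about 1 in 20 groups. Wild-type 48 h replicate 1 was lowest for Igf1 (0.761) and wild-type 48 h replicate 5 lowest for Ndrg2 (0.743). Knockout basal replicate 5 was highest for Ndrg2 (0.896) and knockout basal replicate 2 lowest for Id3 (0.896). Knockout 48 h replicate 5 was highest for Slit2 (0.829).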

How the results depend on the processing

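The count of 10 genes was small and moved with the processing. It was 10 with quantile normalization (7 shared), with scaling to the 75th percentile, with a floor of 0.02 and with a covariate for the Gapdh ratio, and 7 with a pseudocount, with the 20 arrays alone and with at least 1.5-fold. It was 0 with values as deposited (limma; 215 genes at an unadjusted p under 0.05, against 515), 5 with no filter, 3 with the upper 40% of genes, 4 with the mean of probe sets, 4 with no intensity trend and 33 with array weights, which held all 10. It was 1 at an adjusted p under 0.01, 1 with 48 h replicates 1 and 2 alone, 5 with replicates 3 to 5 alone and 13 with a term for those replicates, added after the data were seen; the cause was not tested. Without 1 array the count ranged from 2 to 13. It was 2 without wild-type basal replicate 1, 3 or 5, knockout basal replicate 3 or 4 or knockout 48 h replicate 1. It was 3 without wild-type 48 h replicate 4 or 5 or knockout 48 h replicate 2 or 4, and 5 without wild-type basal replicate 2, wild-type 48 h replicate 3, knockout basal replicate 2 or 5 or knockout 48 h replicate 5. Genes with a strong mean response numbered 58, against 126 with values as deposited, 108 with no filter and 28 with the upper 40% of genes; leaving out 1 array gave 56 to 65. None of the 10 genes changed sign on the log2 scale in any alternative that tested it, and on the linear scale Id3 turned to -0.017. Replicate numbers did not pair the arrays throughout. Of 30 same-numbered pairs, 10 had deviations correlated above 0.1 (range over all pairs -0.175 to 0.281). Among these were 4 of the 5 pairs between the 48 h groups (0.124 to 0.281, against -0.0553 for replicate 5). In 7 of the 30 pairs, the same number was the best match among the 5 arrays of the other group. Between the 48 h groups this held for replicate 3 alone. A replicate block gave 12 genes, 9 of them shared, and 58 strong responders. Probe sets near the floor and the 5 arrays a group limit what low genes can show.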

Other observations

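Of 28 tested cell cycle genes, 0 were called (limma; 10 had an unadjusted p under 0.05). The difference of the 48 h responses was above 0 for 27 of the 28, beside 56.4% of all tested genes, the exception being Foxm1 at -0.18, and its median was 0.30 against 0.02 over all tested genes. Mcm2, of the helicase that opens replication origins, stood at 0.91 (adjusted p = 0.608), the mitotic kinase Aurkb at 0.49 and the cyclin-dependent kinase Cdk1 at 0.47. In wild type 17 of the 28 fell at 48 h (background 15.7%) and 0 rose, with a median change of -0.36; in the knockout 4 fell (background 9.47%) and 1 rose, with a median of -0.05. The list median was 0.18 with 48 h replicates 1 and 2 alone (21 members above 0) and 0.40 with replicates 3 to 5 alone, which makes these the ends of its range over the alternatives. The summed signal of the 29 members on the array had a median of 185 in wild-type and 160 in knockout basal arrays, and of 147 and 152 at 48 h. These genes are coordinately expressed and do not count as independent, and the values are given as a description.

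Of 9 tested microglia and phagocyte markers 8 had a difference above 0, beside 56.4% of all tested genes. Of the 9, 0 were called (limma, 0 at an unadjusted p under 0.05), and their median of 0.22 ran from 0.06 to 0.44 over the alternatives. Cd68 was the exception at -0.46, with rises of 1.87 in wild type and 1.42 in the knockout. Cx3cr1, Aif1, Itgam, C1qc, Fcer1g, Trem2, P2ry12 and Ptprc averaged below the array median in all 4 groups and were not tested. The cholesterol synthesis list, with 19 tested members and 0 calls (limma; 6 at an unadjusted p under 0.05), had a median of 0.12; 6 of its members rose in wild type (background 20.5%) against 12 in the knockout (background 19.4%), and the difference between these counts was not tested.

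The other 15 lists had 0 called members each (limma), and 16 of their members in all had an unadjusted p under 0.05, counting a gene once for each list that holds it. Of 12 tested GABAergic lineage transcription factors, 7 fell in wild type (background 15.7%) against 4 in the knockout (background 9.47%). Their median difference was 0.12. The 4 tested GABA-A and glycine receptor subunits rose in both genotypes (background 20.5% and 19.4%), with a median difference of 0.03. Medians of the other neuronal lists were 0.06 for glutamatergic and projection neuron genes (13 tested), -0.02 for pan-neuronal genes (20), -0.07 for synaptic vesicle genes (17) and -0.07 for voltage-gated ion channels (16). Immediate-early genes (9 tested) had a median of -0.07, and neurotrophins and their receptors (4) stood at 0.0049. Interferon-stimulated genes (12) had a median of 0.18 and p53 targets (14) one of 0.03. Among the marker lists, medians were 0.20 for telencephalon (7), 0.17 for midbrain and floor plate (5), 0.09 for vascular and meningeal (19), 0.08 for erythroid (4) and -0.05 for oligodendrocyte markers (3).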
